A study of Mus musculus with 15 samples.

Results

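The sterol efflux transporters Abcg5, Abcg8, Abca1 and Abcg1, the LXR receptors Nr1h2 and Nr1h3 and the LXR target Lpcat3 were described in the livers and lungs of mice fed phytosterols. These 7 genes were found by their symbols among the 54532 genes of each count table. The data hold 4 livers of the CS group, 5 livers of the PS group and 3 lungs of each, with 1 RNA-seq library per mouse and tissue. The lungs came from 6 of the same mice: lung CS replicates 1, 2 and 3 match the livers of those numbers, and lung PS replicates 1, 2 and 3 match liver PS replicates 1, 3 and 5. All mice were wild-type males of the inbred strain C57BL/6J, 28 weeks old by their labels, although the times given in the study's methods add up to more. The CS group received a control diet and the PS group the same diet with 2% phytosterols, plant sterols that resemble cholesterol.

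LXR alpha, encoded by Nr1h3, and LXR beta, encoded by Nr1h2, are nuclear receptors that pair with RXR and are switched on by oxysterols and some other sterols. Their classical targets lower the sterol content of cells: ABCA1 and ABCG1 pass cholesterol to apolipoprotein A-I and HDL, and the heterodimer of ABCG5 and ABCG8 moves cholesterol and plant sterols from hepatocytes into bile and from enterocytes back into the gut. Loss of ABCG5 or ABCG8 causes sitosterolaemia, in which plant sterols build up in the blood. In the lung, ABCA1 and ABCG1 are known from macrophages and alveolar epithelium, where they limit the lipid left by surfactant.

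Abcg5 (ENSMUSG00000040505, chromosome 17 from 84658234 to 84683011, minus strand) and Abcg8 (ENSMUSG00000024254, chromosome 17 from 84676302 to 84700333, plus strand) lie head to head. Their RefSeq starts on GRCm38.p6 are at 84683011 and 84683121, with 109 bases between them at chr17:84683012-84683120. That interval is printed on its plus strand because both genes of the pair start from it and both were nearly absent from the lungs. Capitals mark 2 copies of TTATCT, which is AGATAA, the core that GATA factors bind, read on the other strand.

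Abcg5-Abcg8 interval: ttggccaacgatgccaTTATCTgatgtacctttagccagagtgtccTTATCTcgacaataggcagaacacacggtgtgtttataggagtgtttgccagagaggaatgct

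Abca1 (ENSMUSG00000015243, chromosome 4 from 53030787 to 53159895, minus strand) is shown with the 200 bases before its start, at chr4:53159896-53160095 on the minus strand, because it was the member with a repeat of the LXR type in the window searched. Capitals mark the E-box CACGTG and, nearer the start, an LXR-type repeat, GGTTA and GGTCA with 5 bases between them, which lies here on the other strand.

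Abca1 promoter: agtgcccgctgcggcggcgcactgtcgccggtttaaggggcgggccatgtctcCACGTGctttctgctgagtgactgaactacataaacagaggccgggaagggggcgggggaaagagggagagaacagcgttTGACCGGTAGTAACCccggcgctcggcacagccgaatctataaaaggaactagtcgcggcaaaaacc

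RefSeq windows were found for 6 of the 7 members, all but Abcg1, which was not searched, and the 250 bases before each start were searched on both strands. The repeat of GGTTA and GGTCA was present in 0.0457% of all 32851 windows and, among the 6 members, before Abca1. The E-box was in 6.02% of windows and AGATAA in 9.99%, the latter before Abcg5 and Abcg8. The consensus LXR repeat, 2 copies of AGGTCA with 4 bases between them, in 0.0152% of windows, and its core AGGTCA, in 14%, were in no window of these 6, which says nothing of sites elsewhere.

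Total counts per library ranged from 14410117 to 17625179 in the livers and from 17934930 to 19396057 in the lungs. Levels are given in CPM, the count divided by a library size that TMM scaled within each tissue, which sets libraries against each other by the bulk of their genes. The tissue labels were checked against marker genes. Alb, which encodes albumin, held at least 856112 counts in every liver and between 6 and 1177 in the lungs, and the summed level of 6 alveolar epithelium markers was at most 6.67 CPM in any liver and at least 21727 CPM in any lung. Liver CS replicate 2 stood apart from the other CS livers, with a chi-square per gene of 263 to 331 against each, beside 42.2 to 96.6 between the others, and without it no member was called for the diet in the liver either. The 10 most abundant genes took 16.6% to 28.8% of the counts in the livers and 9.82% to 15.2% in the lungs.

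The level of each member per gene length, in CPM per kilobase, gave a different order in each tissue. Over the 9 livers Nr1h3 was highest with 45.2 ± 4.96 (SD, n = 9), and its range did not overlap that of Abcg5 with 25.4 ± 6.92 (SD, n = 9). Lpcat3 followed with 21.9 ± 3.06, Abcg8 with 15.8 ± 3.64, Nr1h2 with 12.5 ± 3.75 and Abca1 with 8.05 ± 2.09 (SD, n = 9 each). From Abcg5 down to Abca1 the ranges of neighbours in this order overlapped. Abcg1 was lowest with 0.703 ± 0.28 (SD, n = 9), below the range of Abca1.

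In the 6 lungs Nr1h2 was highest per gene length with 27.1 ± 4.51 CPM per kilobase, followed by Nr1h3 with 22.2 ± 4.97, Abcg1 with 15 ± 2.74 and Lpcat3 with 14.4 ± 1.76 (SD, n = 6 each). The ranges of neighbours overlapped down to Lpcat3, and none of these overlapped Abca1 with 7.15 ± 1.05 (SD, n = 6). Abcg5 and Abcg8 were close to 0, with 0.0869 ± 0.0998 and 0.0152 ± 0.0251 (SD, n = 6 each).

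**Figure D1:**
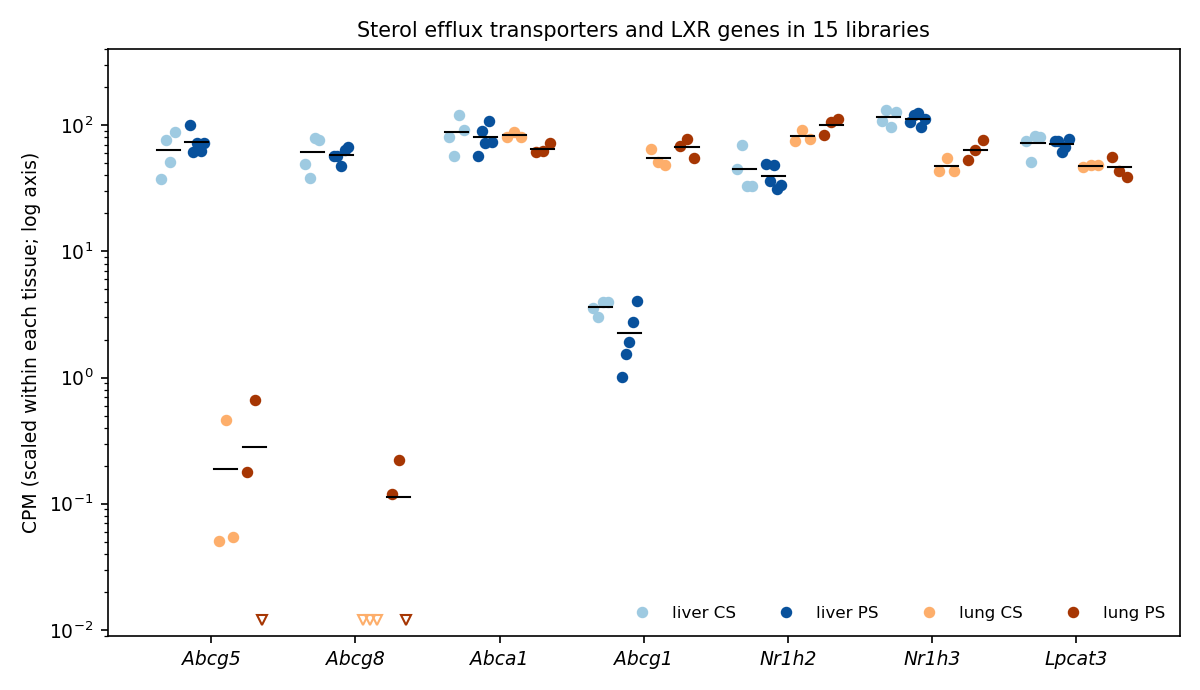
CPM of each gene on a log axis, scaled within each tissue, with 1 point per library, a line at each group mean and open triangles for libraries with a count of 0. The lung points of Abcg5 and Abcg8 lie below 1 CPM, and in the liver only Abcg1 lies below 5 CPM.

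The first question was whether the PS diet changed these genes in the liver, the organ that receives absorbed plant sterols and returns them to bile. No member was called: at an adjusted p under 0.05 edgeR's quasi-likelihood test called 0 of the 7 members, against 0.00758% of all 13195 genes tested. At an unadjusted p at most 0.05 it again gave 0 members, against 7.55% of all genes, and DESeq2's Wald test gave 0 at both thresholds. By their means 1 member was higher and 6 were lower in the PS livers, and the median log2 fold change was -0.06, beside -0.03 over all genes tested.

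Abcg5, one member of the biliary sterol pump, was at 37.4, 76.3, 51.5 and 88.1 CPM in CS replicates 1 to 4 and at 100.1, 60.9, 72.3, 62.3 and 72.3 CPM in PS replicates 1 to 5. The lowest liver was in the CS group and the highest in the PS group, and the groups overlapped. PS against CS gave a log2 fold change of 0.22 (95% interval -0.35 to 0.78, edgeR adjusted p = 0.927).

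Abcg8, the partner without which ABCG5 does not reach the canalicular membrane, was at 48.8, 38.3, 79.2 and 77.0 CPM in the CS livers and at 57.1, 56.8, 47.2, 63.0 and 67.0 CPM in the PS livers. Every PS liver lay within the range of the CS livers. The log2 fold change was -0.06 (95% interval -0.56 to 0.44, edgeR adjusted p = 0.985). The SD of Abcg8 was 20.4 CPM (n = 4) over the CS livers and 7.5 CPM (n = 5) over the PS livers.

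The products of Abcg5 and Abcg8 work as a pair, and their messages were compared from liver to liver. Their log2 CPM gave Pearson's r of 0.05 (exact permutation p = 0.904, adjusted p = 0.904 over the 3 relations computed) and Spearman's rho of -0.08 (exact permutation p = 0.843, adjusted p = 0.843) over 9 livers. With the diet means removed r was 0.06, and without the 2 livers farthest from the median of Abcg5 it was 0.10. Leaving out 1 liver at a time it ran from -0.23 without CS replicate 1 to 0.26 without CS replicate 3. Per gene length, Abcg5 stood to Abcg8 as 2.75 to 1 in CS replicate 2 and as 0.898 to 1 in CS replicate 3. In the PS group this ratio ran from 1.37 to 2.42. The annotation gives the genes 82 bases of overlapping exon on opposite strands, and whether the counting used strand is not given in the sources used here.

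**Figure D2:**
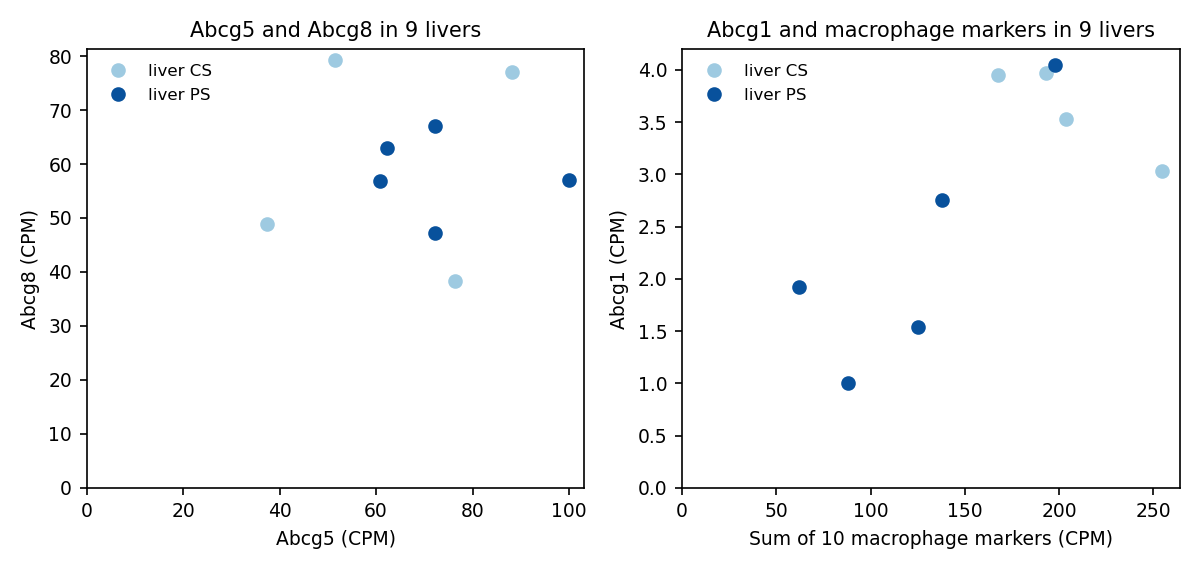
Left, Abcg8 against Abcg5 in CPM for each of the 9 livers. Right, Abcg1 in CPM against the summed CPM of 10 macrophage markers, where 4 of the 5 PS livers lie below every CS liver on both axes.

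Abca1, which loads cholesterol onto lipid-poor apolipoprotein A-I, was at 80.4, 56.9, 121.5 and 92.3 CPM in the CS livers and at 57.3, 90.1, 72.3, 107.1 and 73.4 CPM in the PS livers. The lowest and the highest liver were both in the CS group, and the log2 fold change was -0.13 (95% interval -0.67 to 0.40, edgeR adjusted p = 0.963).

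Abcg1 (ENSMUSG00000024030, chromosome 17 from 31057698 to 31115777), which passes cholesterol to HDL and is best known from macrophages, had the lowest liver level of the members and the log2 fold change farthest from 0. Its level was 3.53, 3.03, 3.95 and 3.97 CPM in the CS livers and 1.0, 1.53, 1.92, 2.75 and 4.04 CPM in the PS livers. In 4 of the 5 PS livers it lay below every CS liver, while PS replicate 5 lay above them all. The log2 fold change was -0.68 (95% interval -1.5 to 0.14, unadjusted p = 0.0939, adjusted p = 0.726 by edgeR), on 13 to 68 counts per liver. Without PS replicate 5 it was -0.99 (unadjusted p = 0.0171, adjusted p = 0.683 by edgeR), so even then it was not called.

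Macrophage markers had lower values in most PS livers as well. The summed level of 10 such markers ran from 167 to 254 CPM in the CS livers and from 62.1 to 198 CPM in the PS livers, where PS replicate 5 again stood highest. All 8 of these markers that were tested had a lower mean in the PS livers, their median log2 fold change was -0.69 and 0 were called. The unadjusted threshold was passed by 2, or 25% against 7.55% of all genes, Clec4f of Kupffer cells with -0.74 (adjusted p = 0.355) and Csf1r with -0.65 (adjusted p = 0.657), by edgeR. Of the endothelium markers 5 of 6 had a lower mean, the median was -0.40 on the log2 scale, and 0 passed either threshold. In bulk tissue fewer cells of a type and less RNA per cell cannot be told apart, and the part of these cells in the Abcg1 values was not tested.

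For the receptors the intervals spanned 0 in the liver. Nr1h3 (ENSMUSG00000002108, chromosome 2 from 91184061 to 91202834) was at 107.7, 130.9, 97.5 and 126.3 CPM in the CS livers and at 105.8, 121.5, 124.2, 97.6 and 112.5 CPM in the PS livers. Every PS liver lay within the CS range, and the log2 fold change was -0.04 (95% interval -0.40 to 0.31, edgeR adjusted p = 0.989). Nr1h2 (ENSMUSG00000060601, chromosome 7 from 44549616 to 44553951) was at 44.9, 69.9, 32.9 and 33.2 CPM and at 49.1, 35.9, 48.2, 31.0 and 33.6 CPM in the same order. CS replicate 2 stood highest, and the log2 fold change was -0.19 (95% interval -0.75 to 0.36, edgeR adjusted p = 0.936). Without CS replicate 2 it was 0.09.

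Lpcat3 (ENSMUSG00000004270, chromosome 6 from 124663027 to 124704418), which places polyunsaturated fatty acids into phospholipids, was at 74.6, 51.5, 82.6 and 80.6 CPM in the CS livers. In the PS livers it was at 74.4, 75.0, 60.9, 67.0 and 77.3 CPM, all within the CS range, and the log2 fold change was -0.03 (95% interval -0.42 to 0.36, edgeR adjusted p = 0.993). Its exons share 334 bases with Emg1 on the other strand, a gene with up to 1026 counts in a liver, so reads in that stretch are uncertain.

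**Figure D3:**
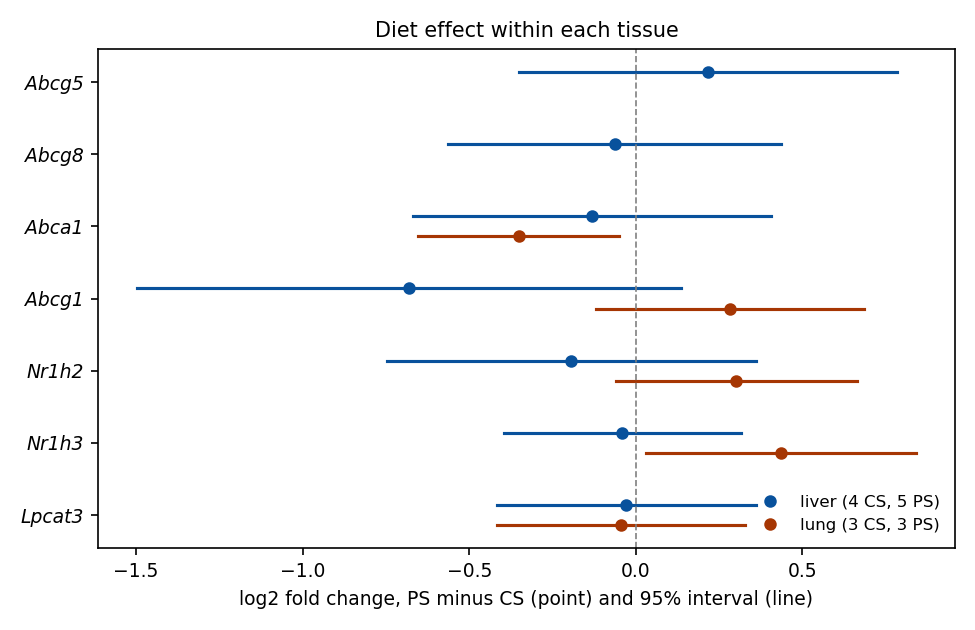
Log2 fold change of the PS group against the CS group for each gene and tissue, with the 95% interval as a line. Of the 12 intervals, those of Abca1 and Nr1h3 in the lung leave out 0 before any adjustment for the number of genes.

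Other genes of the LXR system were counted in the liver from lists. Of 20 LXR targets outside the members, 9 had a higher and 11 a lower mean in the PS livers. Their median log2 fold change was -0.06 and 0 were called, while 2 higher and 1 lower had an unadjusted p at most 0.05, or 15% against 7.55% of all genes. These were the lipogenic genes Fasn with 0.99 (standard error, SE, 0.234, adjusted p = 0.227) and Srebf1 with 0.79 (SE 0.299, adjusted p = 0.541), and the lipase gene Lpl with -0.73 (adjusted p = 0.652), by edgeR. Of 10 RXR partners and coregulators 3 were higher and 7 lower with 0 called. Only Rxrb, an LXR partner, passed the unadjusted threshold, or 10% against 7.55% of all genes. Its log2 fold change was -0.46 (unadjusted p = 0.00747, adjusted p = 0.406 by edgeR).

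Among the enzymes that make or clear oxysterols, 4 of 6 were tested in the liver, 2 higher and 2 lower with 0 called. Cyp7b1, an oxysterol 7-alpha-hydroxylase, had a mean of 272 CPM in the CS livers and 98.8 CPM in the PS livers. Its log2 fold change was -1.46 (unadjusted p = 0.0284, adjusted p = 0.581 by edgeR). It alone of the 4 passed the unadjusted threshold, or 25% against 7.55% of all genes. Of 18 other ABCA and ABCG transporters 10 were tested, 2 higher and 8 lower, with 0 past either threshold. Abcg2, a drug and urate exporter, was nearest with -0.40 (adjusted p = 0.68 by edgeR). For the genes of HDL and its uptake 9 of 10 were tested, 2 higher and 7 lower with 0 called. The endothelial lipase gene Lipg alone had an unadjusted p at most 0.05, or 11.1% against 7.55% of all genes. Its log2 fold change was 0.95 (adjusted p = 0.524 by edgeR).

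The second question was whether the diet changed the same genes in the lung, a tissue that takes its sterols from the circulation. Of the members 5 passed the filter on low counts, and edgeR called 0 of them, against 9.22% of all 16717 genes tested. At an unadjusted p at most 0.05 there were 2, Abca1 lower and Nr1h3 higher, against 30.1% of all genes, and DESeq2's Wald test also gave 0 called and 2 at the unadjusted threshold. The 5 tested members had a median log2 fold change of 0.28, beside 0.01 over all genes. A two-sided exact permutation test of a single gene has a smallest p of 0.1 with 3 lungs a group. The share called over all genes itself depended on single lungs, since without CS replicate 3 it was 0 genes and without PS replicate 1 it was 2949.

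Abca1 was at 80.3, 87.8 and 81.1 CPM in the CS lungs and at 61.4, 61.9 and 72.0 CPM in the PS lungs. The PS lungs lay below the CS lungs without overlap, as was so for 18.8% of all genes tested in the lung. The log2 fold change was -0.35 (95% interval -0.65 to -0.05, unadjusted p = 0.0271, adjusted p = 0.115 by edgeR). Once each library's trend with gene length was removed it was -0.25 (adjusted p = 0.221), and with the GC content trend removed -0.27 (adjusted p = 0.208), neither past the unadjusted threshold. It also missed that threshold without CS replicate 2, CS replicate 3 or PS replicate 2, where the edgeR adjusted p was 0.287, 0.282 and 0.272.

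Nr1h3 was at 43.6, 55.3 and 43.2 CPM in the CS lungs and at 52.7, 63.7 and 75.8 CPM in the PS lungs. PS replicate 1 lay below CS replicate 2, so the groups overlapped. The log2 fold change was 0.44 (95% interval 0.03 to 0.84, unadjusted p = 0.0375, adjusted p = 0.139 by edgeR). With the GC content trend removed it was 0.26 (adjusted p = 0.297) and with the gene length trend removed 0.37 (adjusted p = 0.196). It kept an unadjusted p at most 0.05 without CS replicate 2 or PS replicate 1, and not without any of the other lungs, where the edgeR adjusted p ran from 0.26 to 0.34.

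Nr1h2 was at 74.9, 92.1 and 77.2 CPM in the CS lungs and at 83.6, 106.0 and 111.4 CPM in the PS lungs, with a log2 fold change of 0.30 (95% interval -0.06 to 0.66, edgeR adjusted p = 0.235). The receptors followed each other from lung to lung: over the 6 lungs the log2 CPM of Nr1h2 and Nr1h3 had an r of 0.98, and Nr1h3 ranked 28 of 13967 genes by likeness to Nr1h2. Nr1h3 per Nr1h2, per gene length, ran from 0.746 to 0.801 in the CS lungs and from 0.802 to 0.908 in the PS lungs. The points share 6 libraries and their scaling.

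Abcg1 was at 64.7, 51.4 and 48.5 CPM in the CS lungs and at 68.1, 77.4 and 54.9 CPM in the PS lungs. CS replicate 1 lay above PS replicate 3, and the log2 fold change was 0.28 (95% interval -0.12 to 0.69, edgeR adjusted p = 0.311). The summed macrophage markers were at 460, 427 and 392 CPM in the CS lungs and at 484, 617 and 387 CPM in the PS lungs. Abcg1 and this sum put the lungs in the same order except for PS replicate 3. Chil3 made up most of the sum, with a mean of 254 CPM in the CS lungs and 267 CPM in the PS lungs, beside mean sums of 426 and 496 CPM. Of the 8 markers tested, 6 were higher and 2 lower, with a median of 0.39 on the log2 scale, and 1 was called, Adgre1, which was lower with a log2 fold change of -0.81 (adjusted p = 0.0448 by edgeR). The unadjusted threshold was passed by 3 more, all higher, namely Mrc1 with 0.68 (adjusted p = 0.133), Siglecf with 0.68 (adjusted p = 0.142) and Csf1r with 0.42 (adjusted p = 0.159), by edgeR. In all 50% of the 8 passed it, against 30.1% of all genes, and 12.5% were called, against 9.22%. The part of macrophages in the Abcg1 and Nr1h3 values was not tested.

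Lpcat3 was at 46.9, 48.6 and 48.0 CPM in the CS lungs and at 56.3, 43.7 and 39.1 CPM in the PS lungs. The CS lungs lay inside the range of the PS lungs, and the log2 fold change was -0.04 (95% interval -0.42 to 0.33, edgeR adjusted p = 0.883). Emg1, which shares exon with it on the other strand, held up to 1303 counts in a lung.

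Abcg5 held 1, 9 and 1 counts in the CS lungs and 3, 12 and 0 counts in the PS lungs, and Abcg8 held 0 in each CS lung and 2, 4 and 0 in the PS lungs. Neither gene passed the filter on low counts in the lung. With no filter edgeR gave an adjusted p of 0.796 for Abcg5 and 0.224 for Abcg8 (unadjusted p = 0.617 and 0.0435), so no difference between the diets was called at these counts. Livers held 0.708 to 1.61 counts of Abcg5 per 1000 counts of Alb. Among the lungs, CS replicate 1 held 1 count of Abcg5 beside 1177 of Alb, or 0.85 per 1000, within the liver range. CS replicates 2 and 3 held 1500 and 83.3 per 1000 and PS replicates 1 and 2 held 143 and 64.5, all above that range, and PS replicate 3 held 0 counts of Abcg5. The part of liver message in these lung counts was not tested.

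Of the LXR targets outside the members 17 were tested in the lung. In the PS lungs 7 had a higher and 10 a lower mean, and their median log2 fold change was -0.27. An unadjusted p at most 0.05 was found for 6, or 35.3%, against 30.1% of all genes in either direction, and these were all lower, where 14.5% of all genes were. Of the 17, 1 was called, or 5.88%, against 9.22% of all genes. The called gene was Arl4c, a small GTPase of cholesterol export, whose mean went from 90.3 CPM to 52.7 CPM, a log2 fold change of -0.78 (SE 0.199, adjusted p = 0.0455 by edgeR). Smpdl3a, a phosphodiesterase induced by LXR in macrophages, had -1.04 (adjusted p = 0.0516), and the desaturase gene Scd2 had -0.60 (adjusted p = 0.0721), by edgeR. Of 9 tested partners and coregulators 5 were higher and 4 lower with 0 called and 0 at the unadjusted threshold, Rxra being nearest with -0.55 (unadjusted p = 0.0523, adjusted p = 0.17 by edgeR).

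All 6 oxysterol enzymes were tested in the lung, with 4 higher and 2 lower. The 1 called was 16.7% of them, against 9.22% of all genes, and 3 passed the unadjusted threshold, or 50% against 30.1%. The called gene was Cyp39a1, an oxysterol 7-alpha-hydroxylase, which was lower with a log2 fold change of -1.09 (adjusted p = 0.0465 by edgeR). The sterol 27-hydroxylase gene Cyp27a1 had 0.83 (adjusted p = 0.0773) and Cyp46a1, which makes 24-hydroxycholesterol, had 1.86 from a mean under 1 CPM (adjusted p = 0.0835), by edgeR. Of 15 other ABCA and ABCG transporters tested, 5 were higher and 10 lower, and 2 were called lower, or 13.3% against the 9.22% of all genes called in either direction. These were Abca13 with -3.68 from a mean of 1.29 CPM (adjusted p = 0.0198) and Abca5 with -0.86 (adjusted p = 0.0204), by edgeR. Abca3, the lamellar body transporter of surfactant lipid, had -1.0 (adjusted p = 0.0549 by edgeR). The surfactant protein genes of the same cells had 0.82 for Sftpc (adjusted p = 0.0764), 0.04 for Sftpb, -0.04 for Sftpa1 and -0.09 for Sftpd, by edgeR.

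Of the HDL genes 7 were tested in the lung, 3 higher and 4 lower with 0 called. The sterol carrier gene Npc2 had a log2 fold change of -0.67 (adjusted p = 0.0801), Lcat, which esterifies HDL cholesterol, had 1.53 from a mean of 1.24 CPM (adjusted p = 0.0985), and Lipg had -1.20 (adjusted p = 0.0991), by edgeR. Each lung call named here was lost without CS replicate 3, where no gene passed the adjustment.

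**Figure D4:**
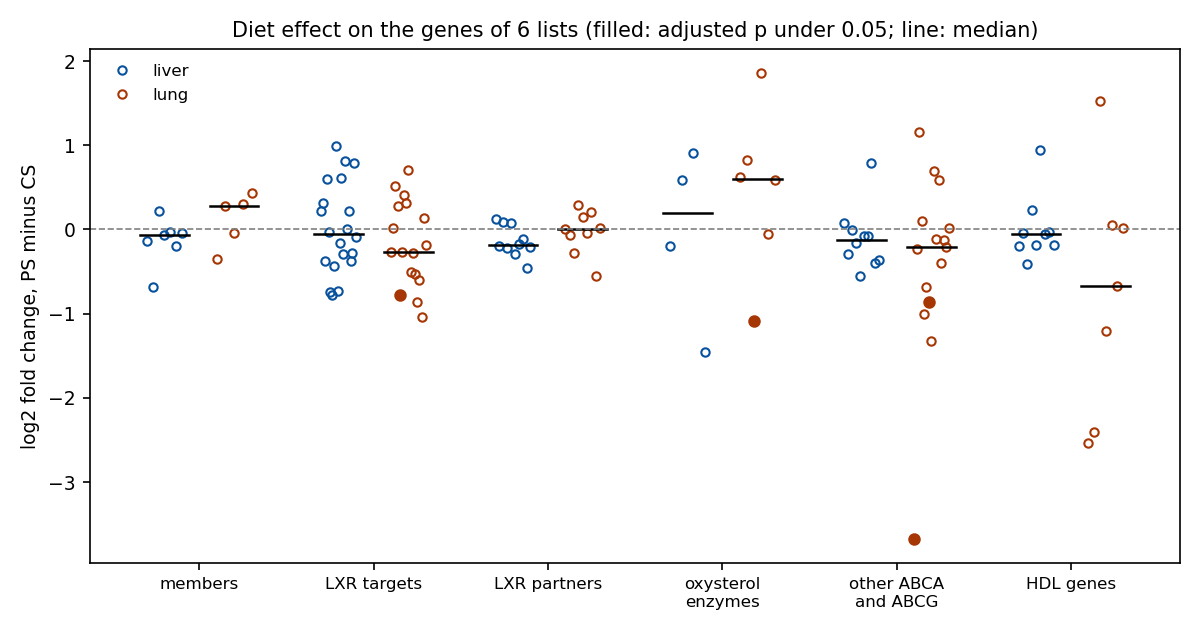
Log2 fold change of the PS group against the CS group for each tested gene of 6 lists, liver beside lung, with a line at the median and filled points at an adjusted p under 0.05. No liver point is filled, and the 4 filled lung points (Arl4c, Cyp39a1, Abca13 and Abca5) all lie below 0.

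Genes of the circadian clock, several of whose products act on lipid genes, were counted beside the members. In the liver 12 of 14, or 85.7%, had an unadjusted p at most 0.05, against 7.55% of all genes, and 0 were called, led by Arntl with a log2 fold change of -1.57 (adjusted p = 0.0974), Nr1d1 with 1.29 (adjusted p = 0.103) and Npas2 with -1.88 (adjusted p = 0.175), by edgeR. In the lung 4 were called higher and 1 lower, or 35.7% of the 14 against 9.22% of all genes, led by Nr1d2 with 0.80 (adjusted p = 0.0264), Cry1 with -0.79 (adjusted p = 0.0332) and Nr1d1 with 1.29 (adjusted p = 0.037), by edgeR. The part of the time of day in the members' values was not tested.

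Whether the diet acted differently on the members in the lung and the liver was tested as the difference of the log2 fold changes in 1 fit over the 15 libraries. No member was called, against 0.0226% of all 17696 genes. At an unadjusted p at most 0.05 there was 1, Abcg8 (adjusted p = 0.37 by edgeR), against 10.9% of all genes, and its value rests on lungs with 0 to 4 counts. Without lung PS replicate 2, which held the 4, no member passed the unadjusted threshold. DESeq2's Wald test called 0 and gave 3 at the unadjusted threshold, Abcg8, Abcg1 and Nr1h3. It called 233 of all genes where edgeR called 4, and its share of all genes at the unadjusted threshold was not counted. For Abcg1, lower in the PS livers and higher in the PS lungs by their means, the difference was 0.92 (95% interval -0.02 to 1.86, adjusted p = 0.463), and for Nr1h3 it was 0.43 (95% interval -0.10 to 0.95, adjusted p = 0.53), by edgeR. For Abca1 it was -0.26 and for Lpcat3 -0.05 (edgeR adjusted p = 0.804 and 0.989).

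The last comparison set the lung against the liver on each diet. With TMM scaling over all 15 libraries, edgeR called 4 of the 5 members that were counted in both tissues on the CS diet, against 67.1% of all genes. Of these 1 was higher in the lung, as 37% of all genes were, and 3 were lower, as 30% were. On the PS diet it called 4 of the 5, against 68.7% of all genes, with 1 higher (38% of all genes) and 3 lower (30.7%). Over the genes with at least 10 counts in every library it also called 4 of the 5, against 63.5% on the CS diet and 64.5% on the PS diet. Abcg5 and Abcg8 entered the fit through the livers alone, so their lower calls followed from the filter and are not counted. The direction of some members rests on the scaling, because TMM scaled the libraries to 0.62 to 0.74 times their totals in the liver and to 1.63 to 1.85 times in the lung. With plain library totals in its place, an alternative chosen after seeing the data, the median over all genes moved by 1.38 on the log2 scale and the higher share of the called genes went from 55.2% to 83.8% on the CS diet.

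Abcg5 and Abcg8, the sterol pump of bile, had nearly all of their counts in the livers. Summed over the CS libraries, Abcg5 held 4073 counts in the livers and 11 in the lungs, a level 835-fold higher in the liver (95% counting interval 466 to 1675), or 321-fold by library totals. In the PS group it held 5804 and 15, a level 676-fold higher (95% counting interval 410 to 1209), or 260-fold by totals. Abcg8 held 4022 and 0 counts in the CS group, so its level was at least 3024-fold higher in the liver, or at least 1162-fold by totals, against a floor of 3 counts over the group. In the PS group it held 4680 and 6, a level 1363-fold higher (95% counting interval 626 to 3715), or 523-fold by totals. The lung sums rest on 1 library for each diet. CS replicate 2 held 9 of the 11 counts of Abcg5, and without it the level was 3050-fold higher in the liver (95% counting interval 844 to 25192). PS replicate 2 held 12 of the 15 counts of Abcg5 and 4 of the 6 of Abcg8, and without it the levels were 2242-fold (767 to 10876) and 2712-fold (750.3 to 22400) higher, an alternative chosen after seeing the data. The intervals cover counting error only.

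Abcg1 went the other way. It held 13 to 68 counts per liver and 894 to 1387 counts per lung, with no overlap. A higher level in every lung was found for 38.8% of all genes on the CS diet and 36.8% on the PS diet. The log2 fold change of Abcg1, lung minus liver, was 2.55 on the CS diet (SE 0.321, adjusted p = 2.79e-06) and 3.48 on the PS diet (SE 0.308, adjusted p = 3.8e-08), by edgeR. By library totals it was 3.94 and 4.84.

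Nr1h3 and Lpcat3 were lower in the lung under both scalings. Nr1h3 had a log2 fold change of -2.65 on the CS diet and -2.22 on the PS diet (edgeR adjusted p = 5.33e-09 and 2.09e-08), and by totals -1.26 and -0.83. Lpcat3 had -1.97 and -2.02 (edgeR adjusted p = 4.26e-07 and 2.11e-07), and by totals -0.58 and -0.64 (edgeR adjusted p = 0.0118 and 0.00493).

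Abca1 and Nr1h2 depended on the scaling. Abca1 had a log2 fold change of -1.45 on the CS diet and -1.71 on the PS diet (edgeR adjusted p = 0.00011 and 1.56e-05), but by totals -0.07 and -0.34 (edgeR adjusted p = 0.822 and 0.242). Nr1h2 was the member not called on either diet, with -0.50 and -0.07 (edgeR adjusted p = 0.0769 and 0.814), and by totals it turned higher in the lung, with 0.87 and 1.34 (edgeR adjusted p = 0.00385 and 5.66e-05).

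**Figure D5:**
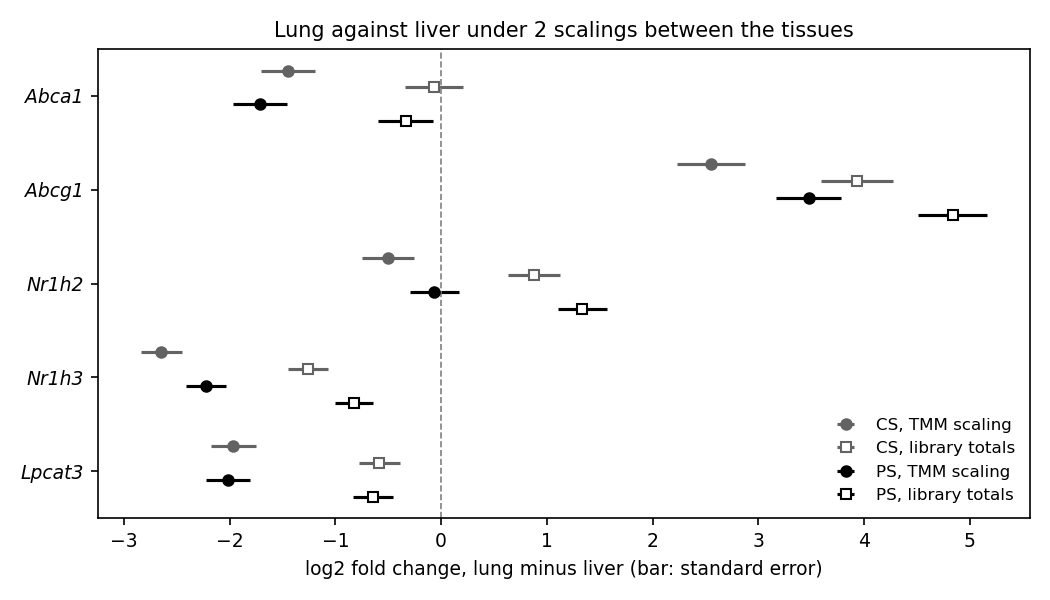
Log2 fold change of the lung against the liver for 5 genes under TMM scaling and under library totals, with the standard error as a bar, for each diet. Abcg1 lies above 0 and Nr1h3 and Lpcat3 below 0 under both, while Abca1 moves to near 0 and Nr1h2 above 0 with library totals.

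The ratio of one member to another within a library does not depend on the scaling. Nr1h3 per Nr1h2, per gene length, was 3.68 ± 1.10 (SD, n = 4) in the CS livers and 3.90 ± 0.715 (SD, n = 5) in the PS livers, so the alpha receptor message led in each of the 9 livers, with a lowest ratio of 2.50. In the lungs it was 0.774 ± 0.0274 and 0.85 ± 0.0535 (SD, n = 3 each), with a highest ratio of 0.908, so the beta receptor message led in each of the 6 lungs. Abca1 per Abcg1 was 9.37 ± 1.97 (SD, n = 4) and 16.5 ± 6.51 (SD, n = 5) in the livers, with a lowest ratio of 7.12. In the lungs it was 0.604 ± 0.102 and 0.394 ± 0.106 (SD, n = 3 each), with a highest ratio of 0.671. The tissues did not overlap in either ratio.

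Across the 6 lungs Abca1 and Abcg1, which act in sequence in cholesterol efflux, gave an r of -0.79 (exact permutation p = 0.0833, adjusted p = 0.25) and rho of -0.83 (exact permutation p = 0.0583, adjusted p = 0.175), neither past 0.05. Without the 2 lungs farthest from the median of Abca1 the r was -0.24, so the value rests largely on those 2 lungs together. Leaving out 1 lung at a time it ran from -0.91 without CS replicate 1 to -0.67 without PS replicate 2. Abcg1 ranked 12467 of 13967 genes by likeness to Abca1 in the lung, so many other genes had an r still lower. Across the 9 livers their r was 0.44 (exact permutation p = 0.234, adjusted p = 0.351) and rho 0.33 (exact permutation p = 0.385, adjusted p = 0.578), and r was 0.50 without the 2 farthest livers and 0.13 without PS replicate 1. With diet means removed the r was -0.74 in the lungs and 0.44 in the livers. Abcg5 and Abcg8 were not correlated over the lungs because of their low counts.

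Likeness among the members is given as a description over libraries that share their depth and scaling. Over the 9 livers Abcg8 ran with Lpcat3 at an r of 0.85, where Lpcat3 ranked 34 of 10734 genes by likeness to Abcg8, and against Nr1h2 at an r of -0.88. Abca1 and Nr1h2 gave -0.82 there and Lpcat3 and Nr1h2 -0.77. By likeness to Nr1h2, Abca1 ranked 9878 and Lpcat3 9399 of 10734 genes, so many other genes had an r still lower. Without CS replicate 2, which held the highest Nr1h2, these 4 values of r were 0.72, -0.79, -0.77 and -0.43. That of Lpcat3 with Nr1h2 thus rests largely on that liver. Nr1h2 and Nr1h3 had an r of 0.50 in the livers, or 0.22 without CS replicate 2, and 0.97 to 0.99 in the lungs when any 1 lung was left out.

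The genes most like each member in the liver, by Pearson's r of log2 CPM over 9 libraries, were Slc35b3, Zfp975 and Clec2d for Abcg5 (highest r 0.96) and Etnppl, Tiam2 and Slc30a1 for Abcg8 (highest r 0.94). For Abca1 they were Vps26b, Cab39 and Skil (highest r 0.98) and for Abcg1 Fam174b, Cyp26b1 and Rangap1 (highest r 0.91). The nearest to Nr1h2 were Gpx3, Tpm2 and Vps52 (highest r 0.97), to Nr1h3 Acot9, Prkag1 and Cst3 (highest r 0.95) and to Lpcat3 Rita1, Hnrnpa0 and Dph6 (highest r 0.95). In the 6 lungs the first for Abcg1 was Ms4a6d, followed by Cep170 and Tmem106a (highest r over 0.99), and for Abca1 the first were Acad9, Ecd and Dffa (highest r over 0.99). Irs3, 1700102P08Rik and Bcan were nearest to Nr1h2 (highest r over 0.99), Prdm11, Parvb and Msh5 to Nr1h3 (highest r 0.99) and Esd, Fndc7 and Fkbp7 to Lpcat3 (highest r over 0.99). These are the top 3 of 10735 genes in the liver and of 13968 in the lung, over few libraries, so high values follow from the picking. No gene named for a member in the liver was named for it in the lung. Lists of 3 from so many genes would rarely share one, so this says nothing of a difference between the tissues.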

How the data were processed

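Clean reads were aligned by the authors to mm10 with HISAT2 2.0.5 and counted per gene with featureCounts 1.5.0-p3, as the submitters' processing notes name them. The deposited counts carry no normalization, and the FPKM values deposited beside them are scaled by the authors for gene length and depth and were used only in alternatives. The gene annotation is not given in the sources used here. Of the 54532 genes, 54409 are in GENCODE M21, and 53499 of them match it in start and end.

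Groups came from the labels. The counts were fitted with edgeR 4.0.16 (R 4.3.3): TMM scaling, filterByExpr with its defaults and the quasi-likelihood test with robust fitting, with Benjamini-Hochberg adjustment over all genes tested. Diets were compared in a fit per tissue, and the tissues and the difference of the diet effects in 1 fit over 15 libraries. Calls were counted at an adjusted p under 0.05 and at an unadjusted p at most 0.05. Alternatives were DESeq2 size factors, the DESeq2 1.42.0 Wald test, leaving out the filter, a minimum of 10 counts in every library, offsets that remove the trend of each library over gene length or over GC content (loess with a span of 0.3), limma 3.58.1 on log2(FPKM + 1) and log2(FPKM + 0.1), replicate or mouse blocks, other sets of libraries, leaving out each library, and library totals between the tissues. The fits were tested on simulated data in which 200 genes were changed by 1 or 2 on the log2 scale, up or down. The liver diet fit recovered 83 of them (14 changed by 1 and 69 by 2). The lung diet fit recovered 134 (44 and 90), and the fit of the difference 30 (1 and 29). Most changes of 1 on the log2 scale were thus missed, so a member that was not called may still have changed.

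The members and lists were chosen with earlier results of these data known. Genes named were the members, the 3 of each list with the smallest unadjusted p in each diet comparison, defining markers as tissue checks, the 3 genes most like each member (mean log2 CPM of at least 1), and genes that overlap or copy a member, sought at 95% identity over at least 200 bases. Each library comes from its own mouse and tissue by the labels, and no pair of libraries was as close as a repeated deposit would be. Mice pair the tissues, but the deviations of the same mouse's liver and lung were nearly unrelated, with r of -0.04 to 0.10. Promoters and gene starts came from RefSeq on GRCm38.p6.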

Additional observations from a re-analysis of the deposited data

How the results depend on the processing

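No member was called for the diet in the liver, in the lung or for the difference between the tissues under any alternative run. At an unadjusted p at most 0.05 the members were 1 in the liver (Abcg1) with limma on either FPKM scale, the replicate block or 15 libraries in 1 fit, and 0 to 1 when a liver was left out. In the lung they were 0 with the gene length or GC content trend removed, 1 with 15 libraries (Abcg8), 3 with no filter (Abcg8 beside Abca1 and Nr1h3) and between 0 and 3 without 1 of the lungs (0 without CS replicate 3 or PS replicate 2, and Abca1, Nr1h2 and Nr1h3 without PS replicate 1). For the difference they were 2 with DESeq2 size factors, no filter or the length trend removed, 3 with DESeq2's test and 0 to 2 when a library was left out. Depth limits Abcg1 in the liver (13 to 68 counts) and Abcg5 and Abcg8 in the lung (0 to 12 and 0 to 4).

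All genes called in the liver numbered 163 with DESeq2's test, 26 with no filter, 2 with at least 10 counts or the GC content trend removed, 0 with the length trend removed, the replicate block or the livers of the 6 mice, 6 and 4 with limma, 48 with 15 libraries and 0 to 65 when a liver was left out (65 without CS replicate 2). In the lung they were 3090 with DESeq2's test, 1 with 15 libraries and between 0 and 2949 without 1 of the lungs (23, 26 and 0 without CS replicates 1, 2 and 3, and 9 without PS replicate 2). For the difference they were 233, 10 with no filter, 2 with the GC content trend removed, 0 in the 12 libraries with or without the mouse block, and 0 to 12 when a library was left out. Between the tissues at least 10 counts in every library left 6715 and 6820 genes called and 4 of the 5 members counted in both tissues. Nr1h2 was called too in the CS group, giving 5 of these 5, with the length or GC content trend removed or without liver CS replicate 3 or 4, and in the PS group with the GC content trend removed.

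Signs that turned, called under neither setting unless said, were in the liver Nr1h3 and Lpcat3 with the GC content trend removed (0.0183 and 0.0133), Abcg8, Nr1h3 and Lpcat3 in the 6 mice (0.0371, 0.0184 and 0.0213), and, leaving out a liver, Nr1h2 (-0.32 to 0.0936), Nr1h3 (-0.12 to 0.0228), Abcg8 (-0.23 to 0.0883), Abca1 (-0.29 to 0.0643) and Lpcat3 (-0.16 to 0.0402). In the lung Lpcat3 ran from -0.22 to 0.0645. For the difference Abca1 was 0.0504 in the 12 libraries, Lpcat3 ran from -0.24 to 0.0949 and Abcg5 from -1.31 to 1.95. Nr1h2 in the PS lung against the liver was 0.10 with either DESeq2 setting, 0.0112 with no filter, 0.23 with at least 10 counts and -0.14 to 0.0399 when a library was left out, and with library totals it was called higher, at 0.87 on the CS diet and 1.34 on the PS diet. The r of Abca1 with Abcg1 over the lungs was -0.24 without the 2 farthest. The cause of these changes was not tested.

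Replicate numbers within a tissue did not pair the samples (r of -0.34 to -0.03 in the liver and -0.01 to 0.10 in the lung), and the replicate block called 0 members. With mice as the block 4 of the 5 members counted in both tissues were called in each tissue comparison and 0 members for the difference, as without it. Correlation of Abcg5 with Abcg8 over the lungs was not run.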

Other observations

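Bile duct markers summed to 6.54 to 11.2 CPM in the CS livers and 6.07 to 7.46 CPM in the PS livers, with 1 of 4 higher and 0 at either threshold by edgeR. Markers of fat and heart muscle summed to 22.5 to 74.3 CPM in the CS livers and 4.02 to 21.4 CPM in the PS livers. Nearly all of this sum was Cidec, a lipid droplet protein gene, with a mean of 37.0 CPM in the CS livers and 9.75 CPM in the PS livers. Adipoq had a mean of 0.06 CPM in each group, and Myh6 of heart muscle held 0 counts in every liver. The sum thus says little of fat or heart muscle tissue. Cidec was the tested gene among them, with a log2 fold change of -1.92 (unadjusted p = 0.0026, adjusted p = 0.29 by edgeR). An unadjusted p at most 0.05 was found for 7.55% of all genes.

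In the lungs the same fat and heart muscle markers summed to 102 to 209 CPM on the CS diet and 21.8 to 397 CPM on the PS diet, with 3 of 6 higher and 0 at either threshold. Bile duct markers, which airway epithelium shares, had 2 of 4 higher and 0 at either threshold. Among endothelium markers 2 of 6 were higher in the PS lungs. Kdr was called lower, with a log2 fold change of -0.95 (adjusted p = 0.0412 by edgeR), or 16.7% of the 6 against 9.22% of all genes. Stab2 also passed the unadjusted threshold but was higher, with 0.97 from a mean of 0.839 CPM (unadjusted p = 0.0499, adjusted p = 0.166 by edgeR). Together they were 33.3%, against 30.1% of all genes. Alveolar epithelium markers had 4 of 6 higher and 0 called. Hepatocyte markers had 2 of 5 tested in the lung, both lower in mean with 0 at either threshold, and in the liver 4 of 5 higher with 0 at either threshold.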
